A study of Mus musculus with 46 samples.

Results

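Myc and its Max network partners were followed across mouse mammary tumors as 7 listed genes: the activators Myc and Mycn, their partner Max, and the antagonists Mxd1, Mxd4, Mxi1 and Mnt. The members were taken by symbol, each through the probe set with the highest mean over all 46 arrays, and 6 of the 7 were measured among the 9329 genes tested. Mxd1 was not analysed here. The values were log2 intensities of Affymetrix mouse genome arrays, on which 1 unit is a 2-fold change, with 1 array for each tumor or gland. Levels of different genes were not set against each other, because probe sets differ in how brightly they hybridize.

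The 46 arrays held 41 primary mammary tumors of 8 models and 5 normal mammary glands of late-pregnant FVB mice (FVB pregnant). The C3TAg model (5 tumors, FVB) carries the SV40 T antigens under the C3(1) promoter, which drives the transgene mainly in the mammary ducts, with some activity elsewhere. In p53-/- (7 tumors, Balb/C) the p53 gene was deleted by MMTV-driven Cre and the tissue was transplanted, and in Brca1-/-p53+/- (5 tumors, 129B6/FVB) MMTV-driven Cre removed Brca1 in mice that also lacked 1 p53 allele. The other models express a transgene from the MMTV promoter in FVB mice: H-Ras (MMTV-Hras, 5), Her2/neu (MMTV-H2N, 5), c-Myc (MMTV-C-Myc, 4), polyoma middle T antigen (MMTV-PymT, 6) and Wnt1 (MMTV-Wnt, 4). The MMTV promoter is also active outside the mammary epithelium, and the tumors were taken from individual mice. The mice's ages are not given in the sources used here. The first 3 models were grouped as basal-type (17 tumors) and the 5 MMTV transgenic models as luminal-type (24 tumors). Strain and model cannot be told apart for p53-/- and Brca1-/-p53+/-, because the glands were from FVB mice only.

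Myc and Mycn are transcription factors that bind the E-box sequence CACGTG only as a dimer with Max, and together they switch on genes for ribosome production, nucleotide synthesis and growth. Mxd and Mxi1 proteins and Mnt compete for the same partner, bind the same sequence and recruit Sin3 and histone deacetylases, so that the targets are repressed. Myc transcripts and protein turn over quickly, and Myc is among the genes most often gained in breast cancer. Mxd proteins are known to rise as cells stop dividing and differentiate, whereas Mnt is present in both dividing and resting cells.

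The network's own binding sequence lay in the promoters of 3 of the 6 members with an entry in the RefSeq promoter table (GRCm38.p6, from 250 bases before to 50 after the start of each entry, which need not be the outermost start of the gene), Max, Mxd4 and Mnt, which are shown as windows of 60 bases with the E-box in capitals. The sequence is a palindrome and reads the same on both strands.
Max, chr12:76962219-76962278, minus strand, E-box starting at position -3 from the start of the promoter entry: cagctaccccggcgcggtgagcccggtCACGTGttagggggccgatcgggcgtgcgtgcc
Mxd4, chr5:34187897-34187956, minus strand, E-box starting at position -219: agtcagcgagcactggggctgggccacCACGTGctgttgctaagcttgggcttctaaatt
Mnt, chr11:74830774-74830833, plus strand, E-box starting at position -123: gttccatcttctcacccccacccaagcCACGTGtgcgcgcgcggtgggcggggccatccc
The sequence was found in 7.15% of the 32851 promoters of the table and in at least 1 promoter of 8.09% of its 27025 genes. These letters were not in the windows of Mycn, Mxd1 and Mxi1. Among the Myc activated targets described below, 10 of the 28 with an entry held it (35.7%).

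Several arrays stood apart and bear on the results. Epcam, the epithelial adhesion protein, was at 11.52 or more on 42 arrays but at 2.99 in Brca1-/-p53+/- replicate 4, 3.60 in MMTV-Wnt replicate 3, 5.28 in Brca1-/-p53+/- replicate 3 and 10.55 in Brca1-/-p53+/- replicate 2. The last of these had the highest adipocyte list score of the 46 arrays (2.48, the mean z-score of the listed genes) and the lowest proliferation score (-2.40). Krt8, a luminal keratin, was at 10.49 or above in all tumors. Krt18, another luminal keratin, fell to 7.83 in the lowest tumor, against 11.48 in the lowest gland. Cdh1, the epithelial cadherin, was at 5.99 in Brca1-/-p53+/- replicate 4, 6.36 in MMTV-Wnt replicate 3 and 6.54 in Brca1-/-p53+/- replicate 3. The lowest gland was at 10.93 for Cdh1. The glands were rich in the milk transcript Csn2 (15.21 to 15.50) and the fat cell transcript Adipoq (13.22 to 14.35), which had medians of 8.80 and 3.41 in the tumors. In whole tissue, fewer cells of a type and less RNA per cell cannot be told apart.

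Myc was highest in the tumors that carry it as a transgene and stood at similar levels in most other groups. The 4 MMTV-C-Myc tumors read 13.10, 13.57, 13.41 and 13.86, and the 5 glands 8.86, 8.92, 8.67, 9.07 and 9.92. The 4 MMTV-Wnt tumors followed at 10.50, 10.38, 10.23 and 10.74. The MMTV-C-Myc values lay above every other array, and the MMTV-Wnt values lay above all 5 glands.

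The p53-/- tumors ranged from 8.61 through a median of 9.90 to 12.95, and the top value, that of replicate 3, lay just under the lowest MMTV-C-Myc tumor. The 6 MMTV-PymT tumors ran from 8.45 to 10.46 with a median of 9.27. In Brca1-/-p53+/- the 5 values were 9.83, 6.94, 10.02, 8.56 and 7.84, the widest spread after that of p53-/-. The remaining models kept to a narrow band: C3TAg from 8.40 to 9.52, MMTV-H2N from 8.55 to 9.24 and MMTV-Hras from 8.01 to 9.57.

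The group means of Myc ran from 13.48 ± 0.32 (SD, n = 4) in MMTV-C-Myc through 10.46 ± 0.22 (n = 4) in MMTV-Wnt and 10.13 ± 1.42 (n = 7) in p53-/- to 8.64 ± 1.31 (n = 5) in Brca1-/-p53+/-. Between neighbours in this order the ranges overlapped at every step except the first. Against the equal-weighted mean of the other 7 models, Myc was 4.10 log2 units higher in MMTV-C-Myc (SE 0.43, 17.2-fold, limma adjusted p = 2.61e-08), where 4.76% of all genes were called higher and 4.76% lower. The array does not separate transcripts of the transgene from those of the endogenous gene. Under quantile normalization higher calls were 61.4% of all calls in this comparison and under median centring 66.2%, instead of 50%.

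**Figure D1:**
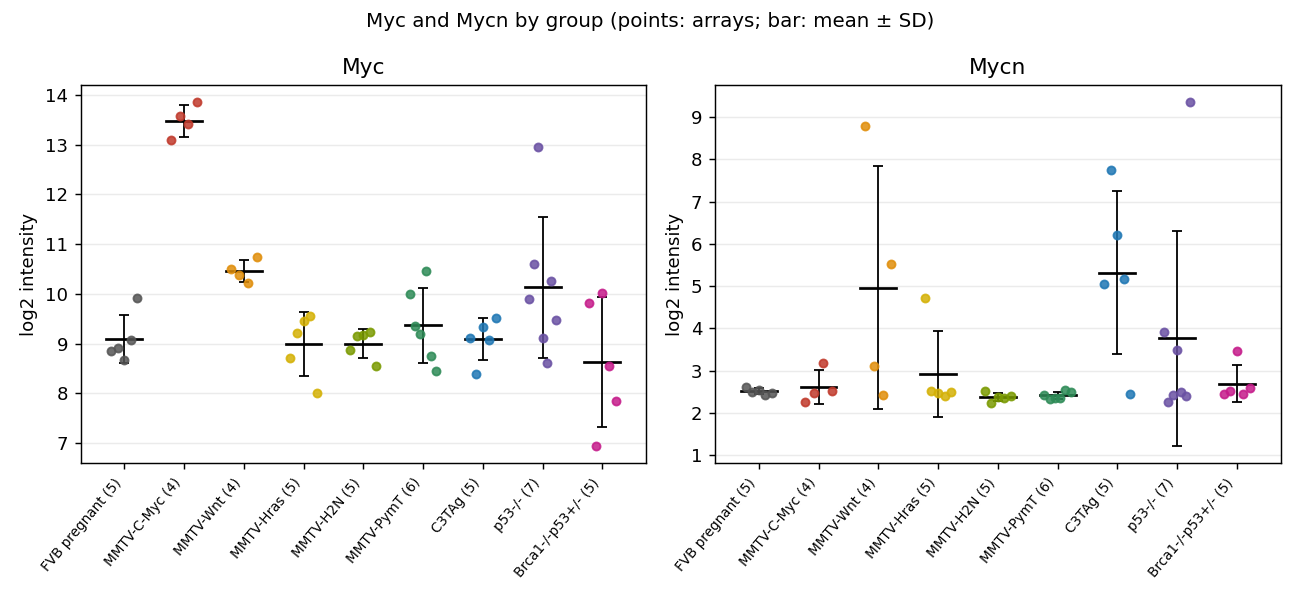
Log2 intensity of Myc (left) and Mycn (right) on each array, by group with the number of arrays in parentheses; points are arrays and black bars the mean ± SD. The 4 MMTV-C-Myc tumors sit at 13.10 or above for Myc, while Mycn is near 2.5 except in single tumors and in 4 of the 5 C3TAg tumors.

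Mycn, the paralog of Myc best known from neural and early developmental tissue, was near the floor of the array values in most samples and high in a few. It exceeded 4 on 8 of the 46 arrays and passed the filter on low values only through them. In C3TAg the 5 tumors read 5.04, 7.75, 6.20, 5.17 and 2.45, so that 4 of the 8 arrays were of this model. The others were p53-/- replicate 7 at 9.36, MMTV-Wnt replicate 1 at 8.79 and replicate 4 at 5.53, and MMTV-Hras replicate 1 at 4.73. The glands read 2.62, 2.49, 2.54, 2.43 and 2.47. All 6 MMTV-PymT tumors (2.33 to 2.53), all 5 MMTV-H2N tumors (2.23 to 2.52) and all 4 MMTV-C-Myc tumors (2.26 to 3.18) were close to the glands.

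Mycn was called higher in C3TAg than in the glands (fitted difference 2.81 log2 units, SE 0.92, limma adjusted p = 0.0112). All 5 glands were at the floor, so the size of this difference depends on the floor and is not a measured fold. Of the 8 arrays that let Mycn pass the filter 4 were of C3TAg, so the call draws on the group that let the gene in. Without C3TAg replicate 2 the fitted difference was 2.21 with an adjusted p of 0.0554. The 8 arrays with Mycn above 4 differed in Myc. Both MMTV-Wnt tumors among them had more Myc than any gland, at 10.50 in replicate 1 and 10.74 in replicate 4. Myc was 9.48 in p53-/- replicate 7, 8.71 in MMTV-Hras replicate 1 and 8.40 to 9.33 in the 4 C3TAg tumors, all within or under the range of the glands. The order of the Mycn group means was C3TAg (5.32 ± 1.94, n = 5), MMTV-Wnt (4.97 ± 2.88, n = 4), p53-/- (3.76 ± 2.55, n = 7) and then the other 6 groups between 2.38 and 2.92, with overlapping ranges between all neighbours.

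Max, the partner that both sides of the network need, had the narrowest range of the members. Its values on the 46 arrays lay between 4.91 and 6.89. Group means ran from 6.41 ± 0.20 (n = 5) in MMTV-H2N and 6.38 ± 0.44 (n = 5) in MMTV-Hras to 5.48 ± 0.35 (n = 6) in MMTV-PymT, and the glands were at 5.98 ± 0.44 (n = 5). No model was called different from the glands by limma, and 1, MMTV-PymT (-0.51), passed an unadjusted p under 0.05. In MMTV-C-Myc, where Myc itself was 21.0-fold above the glands, Max differed from them by 0.01 log2 units (95% interval -0.49 to 0.52).

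Mxi1, an antagonist that competes with Myc for Max, was lowest in the normal gland and higher in the tumors. The glands read 8.79, 9.20, 8.84, 8.87 and 8.82. The 5 MMTV-H2N tumors read 10.04, 10.31, 10.43, 10.63 and 10.69, and the 4 MMTV-C-Myc tumors 10.37, 9.95, 9.85 and 10.73. No tumor of these models overlapped the glands, and neither did any of C3TAg, at 10.15, 10.35, 10.21, 9.77 and 9.73. The 4 MMTV-Wnt tumors read 9.28, 9.92, 10.58 and 9.35, all above the glands but by less.

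In the remaining models some tumors fell to the level of the glands. The 5 MMTV-Hras tumors read 9.09, 9.81, 10.05, 10.70 and 9.37. The p53-/- tumors ran from 8.68 through a median of 9.86 to 10.51 and the MMTV-PymT tumors from 9.03 through 9.48 to 9.85. Brca1-/-p53+/- gave 9.91, 8.40, 10.13, 10.26 and 9.11, with the lowest value in replicate 2, the array with the highest adipocyte score. In all, 36 of 41 tumors lay above the highest gland.

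Over the 8 models weighted equally, Mxi1 was 0.98 log2 units above the glands (SE 0.24, 1.98-fold, limma adjusted p = 0.000877). It was the 1 of 6 members called in that comparison, where 24.2% of all genes were called higher and 17.1% lower. Higher calls made up 58.6% of calls as deposited, 52.3% after quantile normalization and 45.5% after median centring, and the median difference of all genes moved from 0.20 to 0.11 and -0.0049. Mxi1 was called under all 3 scalings. The glands differed from the tumors in cell content: 14 of 15 milk and secretory genes and 8 of 8 adipocyte genes were lower in tumors, and 23 of 24 proliferation genes were higher. The part of these differences in the Mxi1 result was not tested. The other Mxi1 probe set also gave a higher level in tumors, by 1.65 log2 units (adjusted p = 0.0155).

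Mnt, the most broadly present antagonist, had its highest group means in MMTV-C-Myc (8.55 ± 1.15, n = 4), p53-/- (8.30 ± 0.42, n = 7), C3TAg (8.16 ± 0.28, n = 5) and MMTV-Wnt (8.14 ± 0.70, n = 4). The 4 MMTV-C-Myc tumors read 9.48, 8.96, 8.88 and 6.87, the 4 MMTV-Wnt tumors 9.11, 8.10, 7.87 and 7.47 and the 5 C3TAg tumors 7.89, 8.35, 8.14, 7.89 and 8.51. The 7 p53-/- tumors ran from 7.71 through a median of 8.25 to 8.79. The lowest of these tumors was MMTV-C-Myc replicate 4, the array with the most Myc.

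The other 3 luminal-type models were low in Mnt. The 5 MMTV-H2N tumors read 7.13, 6.76, 7.03, 6.96 and 6.78, the 5 MMTV-Hras tumors 6.71, 6.88, 8.03, 6.52 and 6.64, and the 6 MMTV-PymT tumors ran from 6.10 through 6.62 to 6.87. Of these 16 tumors 15 lay under the lowest C3TAg tumor, the exception being MMTV-Hras replicate 3. The glands spread over 7.86, 6.64, 6.53, 7.97 and 7.39, and Brca1-/-p53+/- over 8.67, 9.35, 8.07, 7.99 and 5.66, the last being the lowest Mnt value of all 46 arrays, so both overlapped the high and the low models.

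Mxd4, an Mxd family member that is widely transcribed, was low and variable in 2 of the basal-type models on the probe set used. The p53-/- tumors read from 7.32 through a median of 8.64 to 10.44, and Brca1-/-p53+/- gave 9.72, 9.71, 7.61, 8.49 and 8.84. Of these 12 tumors 8 lay under the lowest gland, at 9.33, while the other 4 were at gland level or above. The glands read 9.78, 9.33, 9.88, 10.26 and 9.55. The 5 C3TAg tumors lay between 8.92 and 9.41, at the bottom of the range of the glands or under it. Another Mxd4 probe set also had its lowest means in p53-/- (7.02), Brca1-/-p53+/- (7.35) and C3TAg (7.44), with the glands at 8.13. A further, dimmer one ordered the groups differently, with the glands (6.05) above the mean of every model. On it Brca1-/-p53+/- (5.15) lay above MMTV-Wnt (4.95), while p53-/- (4.73) and C3TAg (4.74) were lowest.

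In the luminal-type models most tumors were within or above the range of the glands for Mxd4, and 1 tumor lay under the lowest gland in each model but MMTV-PymT. MMTV-PymT ran from 9.82 through 9.85 to 10.46, MMTV-H2N gave 9.05, 10.46, 10.63, 9.87 and 9.99, MMTV-Hras 8.93, 10.14, 10.29, 9.72 and 9.65, and MMTV-Wnt 9.50, 10.48, 9.28 and 10.25. The 4 MMTV-C-Myc tumors read 9.92, 9.71, 9.70 and 8.58, with the lowest again in replicate 4. Group means of Mxd4 ran from 10.02 ± 0.29 (n = 6) in MMTV-PymT to 8.75 ± 1.23 (n = 7) in p53-/-, and the ranges of all neighbours in the order overlapped.

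**Figure D2:**
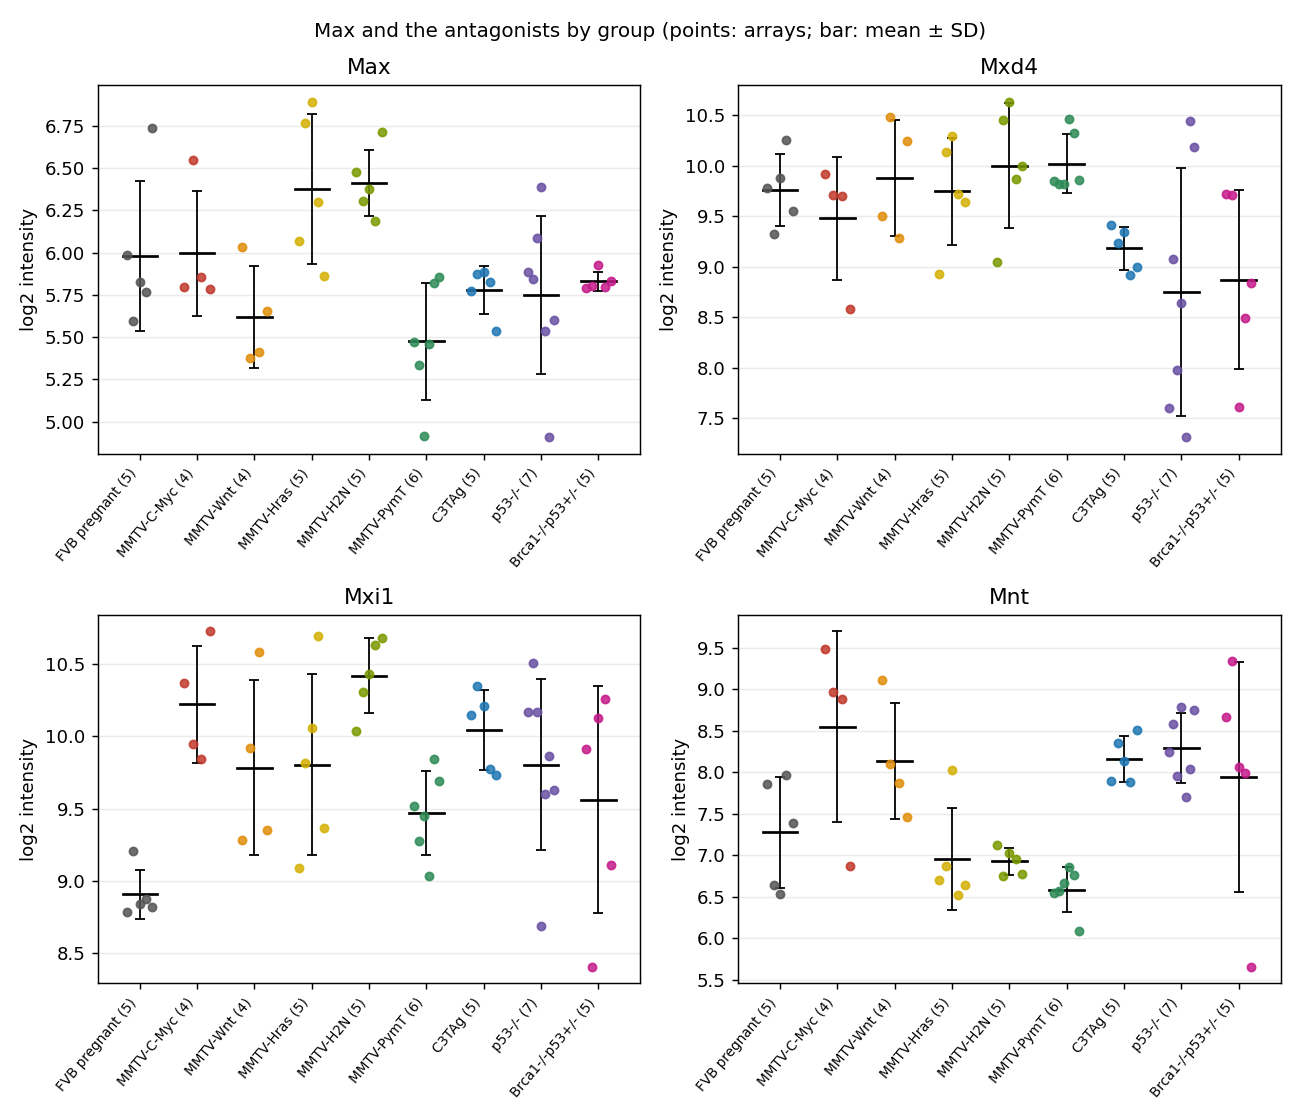
Log2 intensity of Max, Mxd4, Mxi1 and Mnt on each array, by group with the number of arrays in parentheses; points are arrays and black bars the mean ± SD, and each panel has its own vertical scale. Mxi1 is lowest in the glands, Mnt is low in MMTV-Hras, MMTV-H2N and MMTV-PymT, and Mxd4 spreads widely in p53-/- and Brca1-/-p53+/-.

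All 6 members differed among the 9 groups by limma's moderated F test, with adjusted p-values from 4.45e-08 for Myc to 0.0216 for Mxd4, but so did 83.2% of all genes tested. Among the 8 tumor models alone, 5 of 6 members differed, against 74.5% of all genes. Mxi1 was the exception (adjusted p = 0.0800). These shares are near the background, so a difference among groups is not particular to the network. Mycn passed the filter only through the 8 arrays where it exceeded 4, so its F tests draw on the arrays that let it in.

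Set against the same 5 glands, 11 of the 48 combinations of model and member were called. Mxi1 accounted for 6 of them, all higher. In MMTV-H2N it was 1.52 log2 units above the glands (adjusted p = 0.000238), in MMTV-C-Myc 1.32 (0.00227), in C3TAg 1.14 (0.00288), in p53-/- 0.90 (0.0117), in MMTV-Hras 0.90 (0.0286) and in MMTV-Wnt 0.88 (0.0449). With the other Mxi1 probe set 2 of these calls were lost, MMTV-C-Myc (0.62, 0.599) and MMTV-Hras (0.73, 0.513), and under median centring p53-/- (0.55, 0.101) and MMTV-Wnt (0.78, 0.0583). Mnt was higher in MMTV-C-Myc by 1.27 (adjusted p = 0.0334) and in p53-/- by 1.02 (0.0406). Mxd4 was lower in p53-/- and fell by 1.01 (0.0410). Myc was higher in MMTV-C-Myc by 4.39 (1.30e-07) and Mycn in C3TAg as given above, with the limits of the filter and the floor. Several of these calls rested on single arrays. Mnt in MMTV-C-Myc was no longer called without that model's replicate 1, 2 or 3 or without gland replicate 2 or 3 (0.96 to 1.16, adjusted p = 0.0870 to 0.156). Mnt in p53-/- was not called without its replicate 1, 2, 4 or 7 or gland replicate 2, 3 or 5 (0.83 to 1.05, 0.0513 to 0.128). Mxd4 in p53-/- was not called without its replicate 1, 3, 4 or 5 or gland replicate 1, 3 or 4 (-1.01 to -0.77, 0.0560 to 0.116). Mxi1 in MMTV-Hras was not called without its replicate 3 or 4 or gland replicate 1 or 3 (0.68 to 0.88, 0.0534 to 0.118). Mxi1 in MMTV-Wnt was not called without its replicate 2, without its replicate 3, an array low in Epcam, or without gland replicate 1, 3, 4 or 5 (0.61 to 0.87, 0.0674 to 0.209).

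These 8 comparisons share their control glands, and many other genes were called in them too. The share of all genes called in either direction was 48% in C3TAg, where 2 of 6 members, Mxi1 and Mycn, were called. In p53-/- the share was 42.7% (3 of 6) and in MMTV-C-Myc 31.7% (3 of 6). It was 35.1% in MMTV-H2N, 28.1% in MMTV-Hras and 27.8% in MMTV-Wnt, with 1 member called in each. In Brca1-/-p53+/- and MMTV-PymT 0 members were called, against 32.1% and 32.6% of all genes. At an unadjusted limma p under 0.05, 2 members passed in the former, Mxd4 (-0.89) and Mxi1 (0.66), and 1 in the latter, Max (-0.51). Myc itself was not called in MMTV-Wnt (1.37 higher, adjusted p = 0.0580) or p53-/- (1.04 higher, adjusted p = 0.0760).

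**Figure D3:**
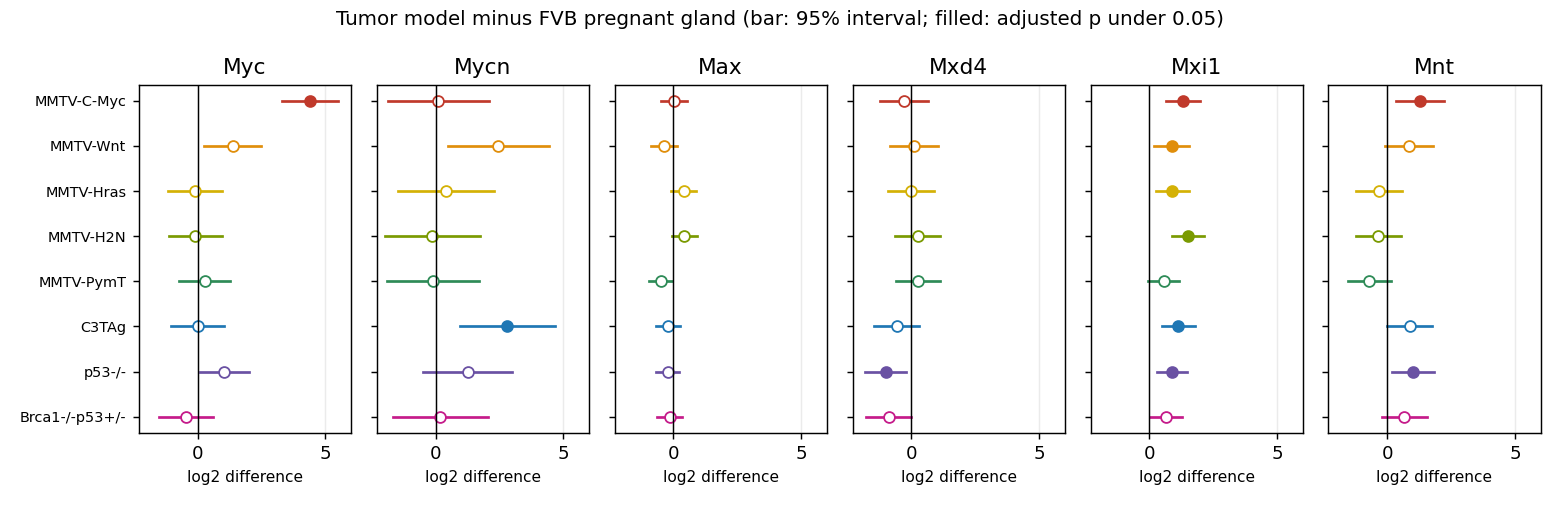
Difference of each tumor model from the 5 FVB pregnant glands (log2, horizontal axis) for the 6 measured members, 1 panel each; points are limma estimates, bars 95% intervals, and filled points have an adjusted p under 0.05. Mxi1 is filled in 6 of 8 models and Myc in MMTV-C-Myc alone, at 4.39.

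With tumors pooled over models, basal-type and luminal-type tumors differed in 2 antagonists, in opposite directions. Mnt was 0.83 log2 units higher in the 17 basal-type tumors than in the 24 luminal-type tumors (SE 0.28, limma adjusted p = 0.0214). Mxd4 was lower in basal-type tumors and fell by 0.93 (SE 0.22, adjusted p = 0.00202). Its other probe sets were not tested. Of all genes 15.9% were called higher and 12% lower, so 1 of 6 in each direction is near the background. Higher calls were 57% of calls as deposited, 47.8% after quantile normalization and 45.8% after median centring.

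Pooling ignores that every tumor shares its model with others and that the class varies only between models. When the model entered as a random block, limma called 0 of 6 members, Mxd4 at -0.90 (adjusted p = 0.234) and Mnt at 0.74 (adjusted p = 0.374). Within the luminal-type side Mnt was not uniform, since MMTV-C-Myc and MMTV-Wnt were high, and without the MMTV-C-Myc arrays, a comparison added after seeing the data, Mnt was 1.08 higher in basal-type tumors (adjusted p = 0.00103). Among FVB arrays alone, with C3TAg as the only basal-type model, the Mnt difference was 0.84 (adjusted p = 0.148). Against 15.9% of all genes called higher and 12% lower, the fibroblast and matrix list was also higher in basal-type tumors (10 of 12 genes). Proliferation (7 of 24, median 0.76 against 0.06 over all genes), endothelial (3 of 8) and neutrophil genes (2 of 4, median 2.35) were called higher too. Macrophage genes (2 of 11) were near the share of all genes, and the T cell (1 of 2) and B and plasma cell (1 of 4) lists held few genes. The milk and secretory list was lower (5 of 15). The part of these lists in the Mnt and Mxd4 results was not tested.

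Myc was not called between the classes (-0.70, adjusted p = 0.278). The luminal-type class holds the transgenic Myc tumors, and without them the difference was -0.01 (adjusted p = 0.976). With equal-weighted model means in place of pooled tumors the Myc difference was -0.97 (limma adjusted p = 0.00351). That contrast still held MMTV-C-Myc (mean 13.48) on the luminal-type side, and its test used the spread among tumors within groups, not among models. Mycn was 0.94 higher in basal-type tumors (adjusted p = 0.193). Among FVB arrays alone, where the basal-type tumors were those of C3TAg, it was called, with a fitted difference of 2.35 (adjusted p = 0.0163). Mycn passed the filter only through 8 arrays, 4 of them of C3TAg, so this call draws on the group that let the gene in. MMTV-H2N, MMTV-PymT and MMTV-C-Myc were near the floor, so the size is not a measured fold.

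No fall of the 3 measured antagonists with rising Myc was detected from array to array. Within groups Myc varied most in p53-/- (SD 1.42) and Brca1-/-p53+/- (SD 1.31), so the slopes lean on these groups. Within groups, the slope of Mxd4 per log2 unit of Myc was -0.06 (95% interval -0.34 to 0.22, limma adjusted p = 0.877), that of Mnt 0.01 (-0.27 to 0.29, adjusted p = 0.978) and that of Mxi1 0.24 (0.05 to 0.42, adjusted p = 0.165). None of the 3 was called with a negative slope: 0 by limma after adjustment and 0 at an unadjusted p under 0.05. Both slopes near 0 changed sign when single arrays were left out. The intervals for Mxd4 and Mnt allow a fall of at most 0.34 and 0.27 log2 units per unit of Myc. Of all other genes 1.87% were called with a positive slope and 0.172% with a negative one. Higher calls were 91.6% of these as deposited, 77.1% after quantile normalization and 74% after median centring.

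Correlations over the 46 arrays after subtraction of group means gave the same picture, with 5 relations to Myc computed. Pearson's r was -0.072 for Mxd4 (two-sided permutation p = 0.783 within groups, Spearman's rho 0.055, p = 0.754) and 0.014 for Mnt (permutation p = 0.953, rho 0.077, p = 0.641). For Mxi1 r was 0.404 (permutation p = 0.0456) and rho 0.293 (permutation p = 0.0940). The 2 arrays farthest from their group in Myc were p53-/- replicate 3, 2.82 above its group mean, and Brca1-/-p53+/- replicate 2, 1.70 below it (-1.70). Without them r was 0.299 for Mxi1, 0.130 for Mxd4 and 0.232 for Mnt, all positive. Brca1-/-p53+/- replicate 2 was 1.16 below its group mean in Mxi1 (-1.16), 1.40 above it in Mnt and 0.83 above it in Mxd4. For Max r was 0.160 (permutation p = 0.384) and for Mycn -0.162 (permutation p = 0.366).

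**Figure D4:**
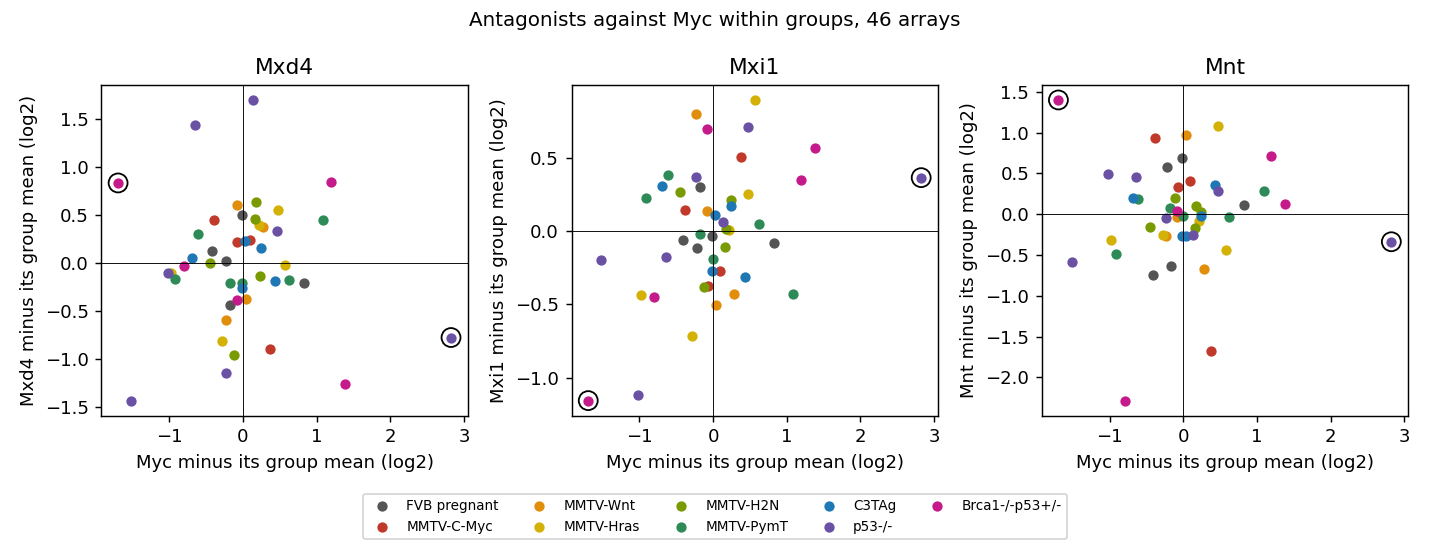
Mxd4, Mxi1 and Mnt (vertical axes) against Myc (horizontal axes) on 46 arrays, each as log2 intensity minus the mean of its group; points are arrays coloured by group, and circles mark p53-/- replicate 3 (right) and Brca1-/-p53+/- replicate 2 (left). No panel shows a clear falling relation: r is -0.072 for Mxd4, 0.404 for Mxi1 and 0.014 for Mnt.

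Genes that Myc is known to activate were higher where Myc was high. Of 33 measured genes of the Myc activated target list, 23 were higher and 0 lower in MMTV-C-Myc than in the other 7 models. Of all genes 4.76% were called higher and 4.76% lower. The median difference of the targets was 1.18 log2 units against -0.08 over all genes tested. Cad, which starts pyrimidine synthesis, was 2.17 higher (SE 0.48, limma adjusted p = 0.00288). Nop56, a core protein of box C/D ribonucleoproteins in the nucleolus, was 1.76 higher (SE 0.31, 0.000186). Srm, the spermidine synthase, was 1.74 higher (SE 0.33, 0.000564) and Nolc1, a nucleolar phosphoprotein, 1.69 (SE 0.52, 0.0330). Among those that did not pass were Ldha at 0.17 (adjusted p = 0.724) and Eif4e at 0.13 (0.851). The count was 13 without MMTV-C-Myc replicate 4 and 15 without replicate 3.

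Fewer genes of the rest of the network were called in that comparison, where 4.76% of all genes were called higher and 4.76% lower. The median difference was 0.30 for the cofactors and 0.15 for the stability genes, against -0.08 over all genes. Of 12 cofactors of Myc and Mad proteins, 2 were higher: Kat2a, the GCN5 histone acetyltransferase, by 1.33 (SE 0.26, adjusted p = 0.000694), and Wdr5, a subunit of MLL methyltransferase complexes, by 0.76 (SE 0.24, 0.0348). Of 8 genes for Myc stability and turnover, Skp2, an F-box protein, was 1.24 higher (SE 0.40, 0.0394). None of the 6 other members of the Max network (Mycl, Mxd3, Mga, Mlx, Mlxip and Mlxipl) passed by limma after adjustment, and Mlx, at -0.93 (adjusted p = 0.118), was farthest from 0. Of 12 genes known to be repressed by Myc, 1 was lower, the matrix protein gene Thbs1, which fell by 1.74 (SE 0.54, 0.0328). Of 24 proliferation genes 0 were higher and 1 lower. Mnt was 0.98 higher (adjusted p = 0.0859), and was called under quantile normalization (1.10, adjusted p = 0.0456) and median centring (1.13, adjusted p = 0.0424), and also without MMTV-C-Myc replicate 4 (1.54, 0.0110) or Brca1-/-p53+/- replicate 2 (1.03, 0.0485).

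The arrays highest in Myc were also highest in the score of the target list. The 4 MMTV-C-Myc tumors scored 0.80, 1.14, 1.55 and 1.64, and p53-/- replicate 3, with Myc at 12.95, scored 1.29. These were the 5 highest arrays for Myc and also the 5 highest for the score. Brca1-/-p53+/- replicate 2, lowest in Myc at 6.94, was lowest in the score at -1.80. That array also had the highest adipocyte score and the lowest proliferation score, with Adipoq at 14.22 and Csn2 at 14.48. The part of its tissue content in the low score was not tested. Below the top the order of the arrays was not the same: Brca1-/-p53+/- replicate 5, with the next lowest Myc at 7.84, scored -0.096, and the next lowest scores were those of FVB pregnant replicate 1 (-0.997, with Myc at 8.86) and MMTV-Hras replicate 4 (-0.993, with Myc at 9.57). The 3 arrays with the most Mycn were not among the highest scores: p53-/- replicate 7 scored 0.23, MMTV-Wnt replicate 1 scored 0.29 and C3TAg replicate 2 scored -0.43.

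Within groups 9 of 33 targets rose with Myc and 0 fell, where 1.87% of all other genes rose and 0.172% fell. The median slope of the targets was 0.27 against 0.03 over all genes. Nop16, a nucleolar protein, rose by 0.75 log2 units per unit of Myc (SE 0.17, limma adjusted p = 0.0171), Srm by 0.54 (SE 0.09, 0.00153), Pus7, a pseudouridine synthase, by 0.47 (SE 0.09, 0.00234) and Fbl, the methyltransferase fibrillarin, by 0.42 (SE 0.08, 0.00324). Among cofactors the helicases Ruvbl1 (0.65, adjusted p = 0.00532) and Ruvbl2 (0.67, 0.0267) and the deacetylase Hdac1 (0.34, 0.0480) rose. This count rested on few arrays. Without p53-/- replicate 3 and Brca1-/-p53+/- replicate 2, a setting added after seeing the data, 0 of 33 targets were called by limma, 2 genes of the whole array were called, and the median slope was 0.17 against 0.06. It was 4 without Brca1-/-p53+/- replicate 2 alone, 4 without its replicate 3, 16 without its replicate 1 and 14 without its replicate 5. Proliferation genes moved with Myc too (4 of 24 rose, median slope 0.48), and with their score as a covariate 2 targets were called.

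**Figure D5:**
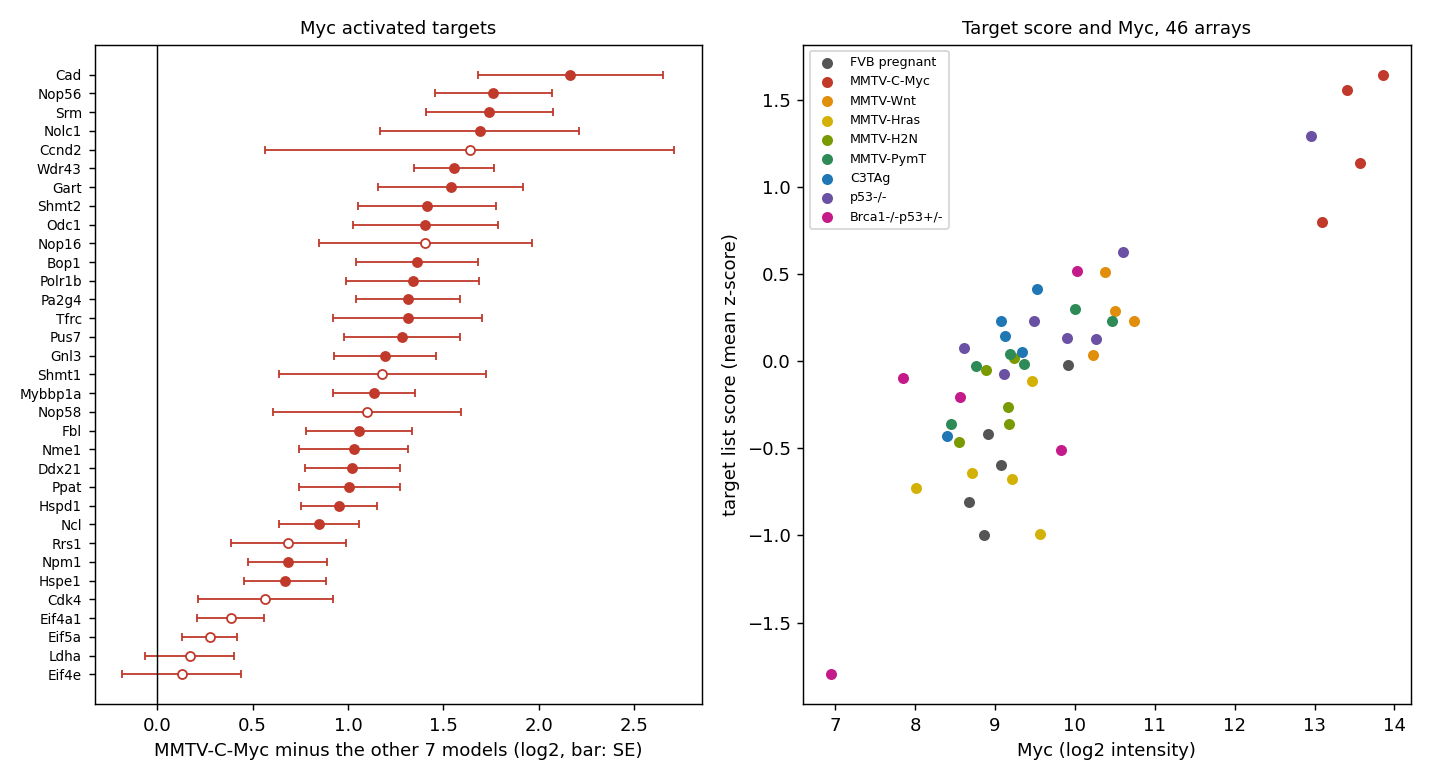
Left, difference of MMTV-C-Myc from the other 7 tumor models (log2) for the 33 measured Myc activated targets, with SE bars and filled points for an adjusted p under 0.05; right, the list score (mean z-score) against Myc log2 intensity on 46 arrays, coloured by group. Of the 33 targets 23 are filled, and the 4 MMTV-C-Myc tumors and p53-/- replicate 3 hold the 5 highest scores.

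The genes whose levels ran most like that of Myc over the 46 arrays, after subtraction of group means, were Nip7 (Pearson's r 0.756), Ebna1bp2 (0.754), 9130401M01Rik (0.750), Utp4 (0.722) and Tcp1 (0.714). Those that ran most against it were N4bp2l1 (-0.607), Creg1 (-0.606), P2rx4 (-0.595), Celf2 (-0.592) and Dgat1 (-0.588). These are descriptions over arrays that include the same 2 arrays far from their groups.

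Against the glands, where 24.2% of all genes were called higher and 17.1% lower, many cofactor and stability genes of the network were called. Of 12 cofactors 8 were higher in the 8 models, with a median difference of 1.14 against 0.20 over all genes, led by Ruvbl1 (2.37, SE 0.40, limma adjusted p = 7.00e-06), Sap30, a subunit of the Sin3 complex (1.78, SE 0.51, 0.00456), Ruvbl2 (1.54, SE 0.47, 0.00768) and Kat2a (1.53, SE 0.23, 1.50e-06). Of 8 stability genes 5 were higher, among them Aurka, a mitotic kinase that also shields Mycn from turnover (4.78, SE 0.61, 4.85e-08), and Skp2 (3.08, SE 0.36, 7.33e-09). The others called higher were Cip2a (2.01, adjusted p = 5.56e-05), Fbxw7 (0.96, 0.00552) and Axin1 (0.54, 0.0322). In this comparison 23 of 24 proliferation genes were higher too, and their part in these calls was not tested. Pim1, a kinase, was lower and fell by 0.92 (0.0421). Of the 6 other Max network genes 1 was lower, Mlxipl, the glucose-responsive factor of fat and liver, which fell by 4.29 (SE 0.47, 1.87e-09), where all 8 adipocyte markers were lower too.

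Of the 33 activated targets 14 were higher in tumors than in the glands, led by Shmt2 of serine and glycine metabolism (2.0, SE 0.33, limma adjusted p = 4.78e-06) and Gart of purine synthesis (1.91, SE 0.34, 1.98e-05), and 2 were lower, the transferrin receptor gene Tfrc (-1.14, 0.00820) and Odc1 of polyamine synthesis (-0.91, 0.0320). Their median was 0.41, against 0.20 over all genes. The 12 Myc repressed genes split evenly, with 3 higher, Thbs1 (4.15, 8.47e-09), Cdkn2b (3.53, 4.47e-05) and Gadd45a (2.91, 2.23e-06), and 3 lower, Ndrg2 (-3.56, 2.31e-05), Cebpa (-2.94, 1.04e-05) and Ndrg1 (-1.66, 0.00967). Between the classes 2 of the 33 targets were called higher and 2 lower, a smaller share than the 15.9% and 12% of all genes, and the list median was -0.0028 against 0.06. Odc1 (0.94, adjusted p = 0.0211) and Rrs1, a ribosome assembly factor (0.67), were higher in basal-type tumors, while Shmt1 (-1.24) and Pa2g4 (-0.83) were lower.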

How the data were processed

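Total RNA of 41 tumors and 5 glands was profiled on Affymetrix mouse genome arrays. The authors deposited log2 values normalized by GC-RMA in Partek, after removing probe sets with present or marginal MAS5 calls in fewer than 3 samples. The submitters' processing notes name GCOS and Partek, with versions not given in the sources used here. The table held 18586 probe sets (array medians 6.48 to 7.48), and GC-RMA compresses unexpressed probe sets to about the same low value, so folds from there are imprecise. The number of arrays limits the precision.

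Groups were taken from sample titles. Probe sets with log2 over 4 in at least 3 arrays and a single gene in the platform annotation were kept, with the highest mean per gene (9329 genes). Myc, Mycn, Max and Mnt had 1 probe set each, Mxi1 2 and Mxd4 4. limma 3.58.1 in R 4.3.3 (with statmod 1.5.0 and matrixStats 1.5.0) fitted the 9 groups, the 2 classes over 41 tumors, and slopes on Myc with groups as terms. Adjusted p-values are Benjamini-Hochberg over all genes, called under 0.05. Correlations used 100000 permutations within groups (Python 3.11.15, scipy 1.17.1, numpy 2.4.6). The fits were tested on simulated data. Plots were drawn with matplotlib 3.10.9. Named genes were the members, up to 4 called genes per list and direction with the largest difference, and the 5 genes most and least like Myc; others were named after their values were seen. Members and lists were chosen with earlier results of these data known. Alternatives were other scalings, no filter, another probe set, replicate and model blocks, covariates, FVB arrays alone and leaving out arrays.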

Additional observations from a re-analysis of the deposited data

Results flagged for a closer look

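In 7 of 54 combinations of member and group, 1 array lay far from its group (about 1 in 20 is flagged by chance), measured as its gap to the nearest array over the range of the group. That rate need not hold for Mycn, which was near the floor on most arrays. The flagged Mycn value of Brca1-/-p53+/- replicate 3 was itself under the filter level of 4. The gap was 0.951 of the range for Mycn in MMTV-Hras replicate 1 (4.73, next 2.51), 0.766 for Mycn in p53-/- replicate 7 (9.36, next 3.91) and 0.854 for Mycn in Brca1-/-p53+/- replicate 3 (3.47, next 2.59). It was 0.913 for Max in MMTV-C-Myc replicate 2 (6.55, next 5.85), 0.831 for Mxd4 in MMTV-C-Myc replicate 4 (8.58, next 9.70), 0.798 for Mxi1 in FVB pregnant replicate 2 (9.20, next 8.87) and 0.766 for Mnt in MMTV-Hras replicate 3 (8.03, next 6.88).

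The effects against the shared glands differed among the 8 models for 5 members by limma's moderated F test. The adjusted p-values were 6.54e-08 for Myc, 0.0168 for Mycn, 0.00314 for Max, 0.0194 for Mxd4 and 0.000309 for Mnt, where 74.5% of all genes differed. The Mycn test draws on the 8 arrays that let it pass the filter, and most other arrays were near the floor.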

How the results depend on the processing

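Myc in MMTV-C-Myc and the count of 0 antagonists with a called negative slope kept their direction and call under all alternatives run. No other Myc probe set was found in the table, so that alternative was not run. For Mxd4 the probe set alternative chose the same probe set, so its other probe sets were not tested. The replicate numbers of the titles did not pair the arrays (mean correlation 0.014 for the same number and -0.003 otherwise, and 7 of 46 arrays correlated best with their own number). Under the replicate block the Mxd4 slope was 0.042 and the Mnt slope -0.041, 3 calls against the glands were lost, Mnt in MMTV-C-Myc (1.17, limma adjusted p = 0.0531), Mnt in p53-/- (1.01, 0.0589) and Mxi1 in MMTV-Wnt (0.85, 0.0726), and genes with a called slope numbered 45 positive and 2 negative instead of 174 and 16. The cause was not tested. Alternatives also added calls against the glands. These numbered 11 as deposited, 10 under the replicate block, 12 under quantile normalization and 9 under median centring. In the FVB models they numbered 8 as deposited and 11 with FVB arrays alone.

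Slopes near 0 changed sign elsewhere too: Mxd4 was 0.079 with the proliferation score as covariate, 0.22 without the 2 arrays farthest in Myc and 0.059 without the 4 arrays lowest in Epcam, and Mnt was -0.034 with the fibroblast and matrix score. The class difference of Mxi1 was 0.13 among FVB arrays alone. Members called between classes numbered 0 with the model as a random block. Members called in tumors against glands numbered 2 without the 2 arrays farthest in Myc, where Myc was also called (0.80, adjusted p = 0.0224). The 9 targets rising with Myc became 5 under quantile normalization, 5 under median centring, 2 with the proliferation score, 0 without the 2 arrays farthest in Myc and 4 without the 4 lowest in Epcam. Genes with a called slope numbered 54 positive and 16 negative under quantile normalization, 74 and 26 under median centring, 31 and 8 with the proliferation score, and 2 and 0 or 44 and 5 without those 2 or 4 arrays.

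Leaving out each array in turn gave 6 to 13 calls of members against the glands and 5 to 9 in the FVB models, lowest in both without FVB pregnant replicate 3. It gave 13 to 23 targets higher in MMTV-C-Myc, 4 to 16 targets rising with Myc, -0.17 to 0.11 for Max in tumors against glands (above 0 only without FVB pregnant replicate 5), and 5 or 6 members that differed among the 9 groups. Slopes ran from -0.18 to 0.061 for Mxd4, above 0 without p53-/- replicate 3 (0.061) or Brca1-/-p53+/- replicate 2 (0.0098) or 3 (0.027), and from -0.079 to 0.15 for Mnt, below 0 in 8 of the 46 runs. The share of higher calls went from 61.3% to 43.5% in C3TAg, 63.6% to 43.5% in MMTV-H2N, 61.2% to 42.9% in p53-/- and 62.2% to 43.4% in MMTV-PymT under median centring.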
